A study of Rattus norvegicus with 2 samples.

Results

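The glucocorticoid receptor, encoded by Nr3c1, is held in the cytoplasm by chaperones until a steroid binds, then enters the nucleus and binds DNA at its target genes. Several of those targets act as brakes: some lower the receptor's own sensitivity, and others restrain inflammatory kinases, NF-kB or growth signalling. Microglia, the resident macrophages of the brain, carry the receptor, and glucocorticoids are known to dampen their inflammatory responses. Dexamethasone is a synthetic agonist of this receptor.

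The 10 genes described here are Fkbp5, Tsc22d3, Per1, Sgk1, Klf9, Ddit4, Zbtb16, Nfkbia, Dusp1 and Errfi1, chosen by symbol as widely used targets of the receptor from the 32623 genes listed in the count matrices, where every one of the 10 was found. The study asked what exposure to dexamethasone before birth does to hippocampal microglia in the rat. The dexamethasone library came from the pooled hippocampi of 7 exposed male embryos and the control library from those of 7 unexposed male embryos, both taken on gestational day 20 and sorted by flow cytometry before droplet capture. The strain, the dose and the days of exposure are not given in the sources used here.

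The dexamethasone library held 42611920 unique molecular identifiers (UMIs, counts of captured molecules) in 4328 barcodes, and the control library 69940778 in 8342, with 5 barcodes common to both. Each group is 1 library, so there is no replicate error, no p-value is given, and batch and exposure cannot be told apart. Cells were assigned by marker counts that include none of the 10 genes. This gave 2831 dexamethasone and 5557 control microglia, 360 and 661 border macrophages (the Mrc1-rich macrophages of meninges and vessels), 54 and 41 granulocyte-like cells, 91 and 116 erythroid cells and 73 and 264 neuron-like cells. Microglia were further divided into homeostatic, axon-tract-like (Spp1, Gpnmb and Lpl), chemokine-high (Ccl3 and Ccl4), S phase and G2/M phase cells, and a remainder. The microglial marker P2ry12 stood at 189.3 and 229.4 counts per 1000000 UMIs (CPM) in dexamethasone and control microglia, against 1.96 and 0.80 CPM in neuron-like cells. Mitochondrial transcripts took 3.11% of UMIs in dexamethasone and 5.98% in control microglia, and the red-cell transcript Hba-a1, a sign of free RNA, stood at 87.2 and 175.8 CPM there. The summed level of 14 neuron markers was 10.6 CPM in dexamethasone and 38.5 CPM in control microglia, that of 2 choroid markers 10.5 and 78.8 CPM. The part of these library differences in the ratios below was not tested. Leaving mitochondrial, ribosomal protein and globin genes out of the totals changed the Dusp1 ratio in microglia little, to a log2 value of 1.31 against 1.33.

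The members did not move together in microglia. Dusp1 was higher in the dexamethasone library, Ddit4, Errfi1 and Fkbp5 were lower, and Tsc22d3, Sgk1 and Nfkbia had nearly equal levels. Of the 9 genes with at least 20 UMIs over both libraries, 1 had a log2 ratio of dexamethasone over control above 0 and 8 below, with a median of -0.15, while the median over all 12390 genes measured in microglia was -0.0012. One gene, Dusp1, was higher past 1.5-fold, where 5.32% of all measured genes were, and 2, Ddit4 and Errfi1, were lower past 1.5-fold, where 5.15% were. The receptor gene itself, Nr3c1, stood at 45.9 CPM in dexamethasone and 42.7 CPM in control microglia. All intervals below are at the 95% level and cover counting error only.

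**Figure D1:**
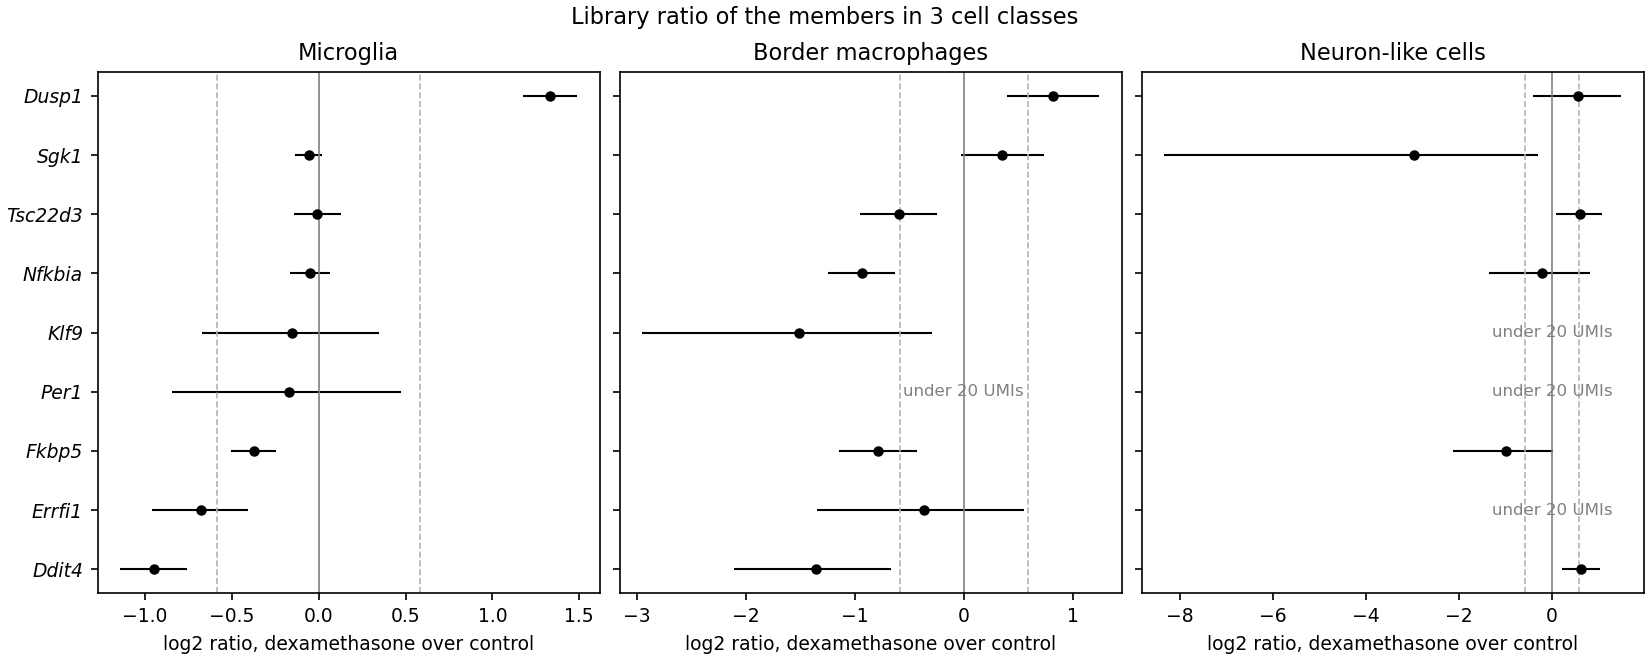
Log2 ratio of dexamethasone over control for each gene in microglia, border macrophages and neuron-like cells, with exact 95% counting intervals as bars and 1.5-fold either way as dashed lines (each panel has its own scale). In microglia Dusp1 lies alone on the right at 1.33, and Ddit4 lies farthest left at -0.95.

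The transcript of a brake on the receptor itself was lower in microglia of the dexamethasone library, by less than 1.5-fold. Fkbp5 encodes an FK506-binding cochaperone that lowers the receptor's affinity for hormone and is itself induced by the receptor. It stood at 24.0 CPM (Poisson interval 22.3 to 25.9, 708 UMIs) in dexamethasone and 31.1 CPM (29.6 to 32.7, 1599 UMIs) in control microglia, a log2 ratio of -0.37 (-0.50 to -0.24). Its level was highest in cycling cells. S phase cells had 40.3 and 49.5 CPM and G2/M cells 39.9 and 45.2 CPM in dexamethasone and control, while homeostatic cells had 11.4 and 23.9 CPM and axon-tract-like cells 7.64 and 18.6 CPM. In each library the interval of both cycling states lay above that of homeostatic cells. The library ratio was largest outside the cycle, with a log2 value of -1.07 (-1.51 to -0.65) in homeostatic and -1.28 (-1.97 to -0.64) in axon-tract-like cells, against -0.29 (-0.55 to -0.04) in S phase and -0.18 (-0.41 to 0.05) in G2/M cells. With doubled marker minimums, which left 68 and 163 homeostatic cells with 28 and 37 Fkbp5 UMIs, the homeostatic ratio turned to 0.56. The G2/M ratio was then -0.42. It was 0.32, on 12 and 17 UMIs, when cells were thinned before gating. Chemokine-high cells ran the other way at 30.0 and 15.5 CPM, but on 19 and 9 UMIs, and the interval of -0.26 to 2.28 includes no difference.

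A count of cell-cycle markers gave a like picture without named states. It used S and G2/M marker genes on the same microglia, so it is not separate support. After each microglial cell was thinned to 3000 UMIs, cells with no UMI of the S and G2/M marker genes had 10.1 CPM of Fkbp5 in dexamethasone and 20.8 CPM in control, a log2 ratio of -1.04 (-1.74 to -0.39). Cells with 2 to 3 such UMIs had 18.9 and 30.6 CPM (-0.70, -1.31 to -0.11). Cells with 8 to 15 had 60.7 and 54.2 CPM (0.17, -0.45 to 0.76). Fkbp5 was lower in the dexamethasone library among cells with few cycle markers, and no difference was detectable at this depth among those with many. The difference in ratio along the count was not tested.

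**Figure D2:**
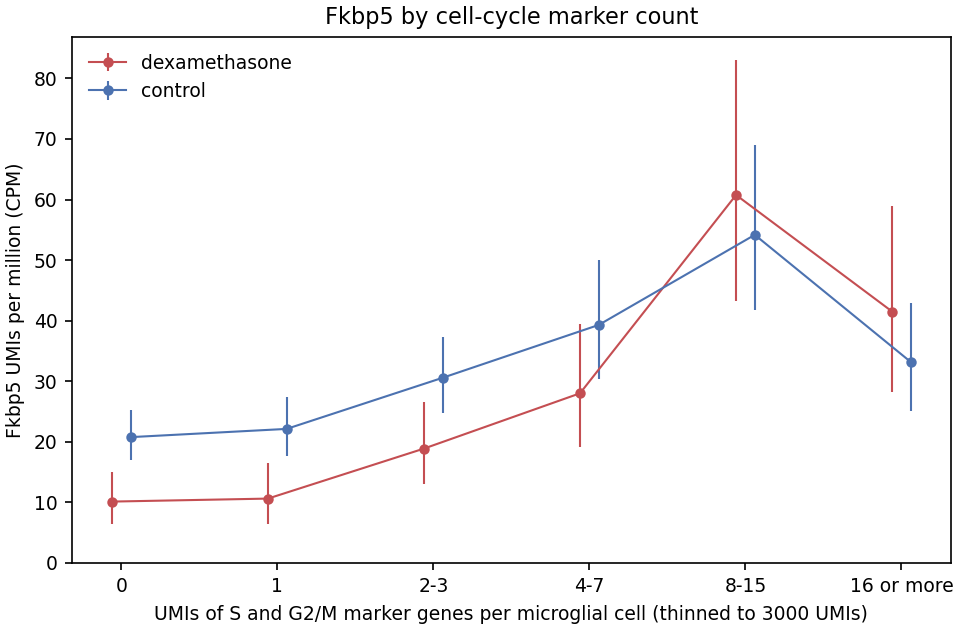
Fkbp5 level in CPM (vertical axis) in microglia grouped by their UMIs of S and G2/M marker genes after thinning to 3000 UMIs (horizontal axis), in the dexamethasone and control libraries, with 95% Poisson intervals. The dexamethasone points lie below the control points at 0 to 7 marker UMIs, at 10.1 against 20.8 CPM in the lowest bin. The intervals are apart in the bins of 0 and 1 and overlap from 2 upward.

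Dusp1, which encodes a phosphatase that inactivates p38 and JNK kinases, was the member with the largest ratio in microglia. It stood at 28.5 CPM (26.6 to 30.5, 838 UMIs) in dexamethasone and 11.3 CPM (10.4 to 12.3, 581 UMIs) in control microglia, 2.52-fold higher (log2 ratio 1.33, 1.18 to 1.49). The dexamethasone level was above the control level past 1.5-fold in each of the 6 microglial states. As many as 5.15% of all measured genes were that much higher in homeostatic, 6.2% in axon-tract-like, 11.5% in chemokine-high, 5.59% in S phase, 5.8% in G2/M and 4.82% in the remaining microglia. The smallest log2 ratio was 0.84 (0.50 to 1.18) in homeostatic cells, at 26.7 against 14.9 CPM, and the largest 1.93 (1.34 to 2.54) in axon-tract-like cells, at 23.5 against 6.19 CPM. Chemokine-high cells held the highest Dusp1 level in dexamethasone, at 67.8 CPM, with 29.2 CPM in control. More cells carried it as well: thinned to 3000 UMIs, 8.03% of 2815 dexamethasone and 3.55% of 5500 control microglia had a Dusp1 UMI, with 16 and 57 shallower cells left out, and without thinning 18.8% and 8.75%. Erythroid cells had a thinned share of 1.10% of 91 dexamethasone and 0.870% of 115 control cells. Globin takes most of their UMIs, which lowers this share, so it does not measure free RNA in microglia. The median depth was 9353 and 8141 UMIs in microglia and 17930 and 20710.5 UMIs in erythroid cells.

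Cells with a Dusp1 UMI carried several immediate-early genes more often. In the thinned dexamethasone microglia, 40.3% of 226 Dusp1 carriers had a UMI of Fos, a subunit of the AP-1 transcription factor, against 17.4% of the others. In control the shares were 30.8% of 195 carriers and 12.3% of the others. For Egr1, an early zinc finger factor, they were 26.5% against 7.49% in dexamethasone and 15.4% against 5.01% in control. For Ier2, another early gene, they were 24.3% against 12.6% in dexamethasone and 11.8% against 10.5% in control. Atf3, a stress-induced early gene, was present in 2.65% of carriers and 2.55% of the others in dexamethasone, and in 3.08% and 1.72% in control. The same comparison for Nr3c1 gave 11.1% against 12.5% in dexamethasone and 15.4% against 11.9% in control. Early genes, which cell dissociation is known to induce, were also higher in the dexamethasone library as a list. Of 24 measured, 22 were above 0 in microglia and 2 below, with a median log2 ratio of 0.23. In that list 7 were higher and none lower past 1.5-fold, where 5.32% of all measured genes were higher and 5.15% lower. Fos stood at 96.0 CPM in dexamethasone and 58.9 CPM in control microglia, and Egr1 at 41.4 and 22.0 CPM. After thinning, 46.8% of dexamethasone and 52.6% of control microglia had no UMI of Fos, Jun, Junb, Egr1 or Ier2. Among them the Dusp1 log2 ratio was 1.16, a comparison chosen after the data were seen. Thinning hides UMIs: Fos was present in 19.2% of thinned and 36.2% of unthinned dexamethasone microglia, and in 12.9% and 24.3% in control. Such cells can still hold early-gene transcripts, so the dependence of the Dusp1 ratio on early genes was not tested.

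**Figure D3:**
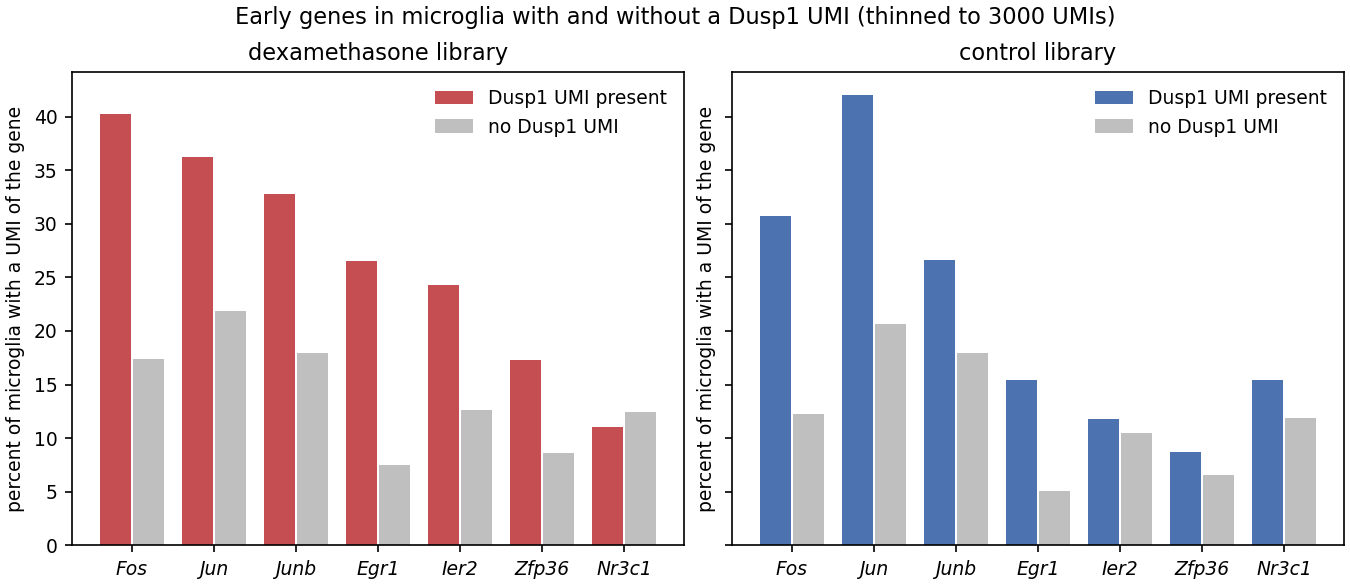
Percent of microglia, thinned to 3000 UMIs, with a UMI of each early gene or of Nr3c1 (vertical axis) among cells with and without a Dusp1 UMI, in the dexamethasone (left) and control (right) libraries. Fos was present in 40.3% of Dusp1 carriers and 17.4% of the others in dexamethasone, and in 30.8% and 12.3% in control, while Nr3c1 was present in 11.1% and 12.5% in dexamethasone and in 15.4% and 11.9% in control.

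Of the other signalling brakes, Nfkbia encodes IkBa, which holds NF-kB in the cytoplasm. It stood at 31.8 CPM in dexamethasone and 32.9 CPM in control microglia, a log2 ratio of -0.05 (-0.17 to 0.07). Its levels were highest in chemokine-high microglia, at 107.2 and 61.8 CPM (log2 ratio 0.79, 0.19 to 1.42), and granulocyte-like cells, at 76.9 and 134.8 CPM (-0.81, -1.42 to -0.20). Control border macrophages, at 55.1 CPM, lay close to control chemokine-high microglia. The remaining microglial states lay between 25.5 and 33.2 CPM in dexamethasone and between 26.1 and 36.4 CPM in control. The list of NF-kB feedback genes also holds NF-kB subunits, cytokines and chemokines. Of its 17 measured genes, 14 were above 0 and 3 below in microglia. In it 4 were higher and none lower past 1.5-fold, where 5.32% of all measured genes were higher and 5.15% lower. The 3 below were Nfkbib, Nfkbie and Tnfaip3 (-0.14, -0.15 and -0.12), each with an interval that includes 0. Of the genes above 0, Relb (0.23), Nfkb2 (0.06) and Bcl3 (0.60, past 1.5-fold) also had intervals that include 0. Nfkbid and Nfkbiz of the same list were at 0.41 and 0.80. The chemokine genes Ccl3 and Ccl4 in that list stood at 159.2 and 54.3 CPM in dexamethasone against 120.3 and 30.4 CPM in control. The inflammatory cytokine gene Il1b stood at 20.1 against 14.2 CPM.

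Tsc22d3 encodes GILZ, a leucine zipper protein that binds NF-kB and AP-1 subunits and is among the most used markers of receptor activity. Its levels in microglia were 23.5 CPM in dexamethasone and 23.6 CPM in control, a log2 ratio of -0.01 (-0.14 to 0.13). That interval covers counting error only, and the ratio was -0.15, outside it, when cells were thinned before gating. By state the ratio was 0.22 in homeostatic cells and -0.20 in the remaining microglia, both with intervals that include 0. It was highest outside microglia, at 89.7 and 126.2 CPM in granulocyte-like and 111.7 and 74.0 CPM in neuron-like cells. In both libraries these 2 classes had higher levels than every microglial state, although in control the intervals of neuron-like cells and chemokine-high microglia (48.1 CPM) overlapped. Errfi1 encodes MIG6, an inhibitor of the epidermal growth factor receptor. It stood at 5.06 CPM in dexamethasone and 8.10 CPM in control microglia (log2 ratio -0.68, -0.96 to -0.40), with the lowest state ratio in S phase cells, at 2.68 against 7.22 CPM on 15 and 46 UMIs. Its microglial ratio moved to -0.45 when the 6 states were weighted equally, which takes it under 1.5-fold.

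By state, the members lower past 1.5-fold were few. They were Fkbp5 and Errfi1 among 8 measured in homeostatic cells (5.31% of all measured genes), Fkbp5 and Ddit4 among 8 in axon-tract-like cells (6.34%) and Ddit4 and Errfi1 among 8 in S phase cells (5.34%). Errfi1 was the 1 such member of 8 in G2/M cells (4.54%), Ddit4 the 1 of 9 in the remaining microglia (5.83%), and Tsc22d3, on 15 against 28 UMIs, the 1 of 6 in chemokine-high cells (9.9%). Doubled marker minimums took Errfi1 in homeostatic cells to -0.14 and Ddit4 in S phase cells to -0.36, and halved ones took Errfi1 in homeostatic cells to -0.53, all under 1.5-fold. In chemokine-high cells 3 of the 6 members, Nfkbia, Dusp1 and Fkbp5, were higher past it, where 11.5% of all measured genes were, and Fkbp5 rested on 19 and 9 UMIs. No difference between states was tested.

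Promoter sequence is shown for Dusp1 and Nfkbia, the members whose start regions held a searched motif, and for Fkbp5 and Ddit4, as examples of lower-level members without one. RefSeq windows on the GRCr8 assembly, 250 bases before to 50 after a gene's annotated start, were found for 9 of the 10 genes, in 13 windows, and Zbtb16 had no entry. The counts rest on the older Rnor_6.0 assembly, so these positions belong to the sequences alone. Both strands were searched for the receptor's palindromic motif, which is AGAACA followed after 3 bases by its reverse complement. The single site AGAACA, which lies within that palindrome, the cAMP-response element TGACGTCA, the E-box CACGTG and the NF-kB consensus motif were searched as well. Of 33469 windows, 0.0149% held the palindrome, 20.7% the single site, 1.83% the cAMP-response element, 6.42% the E-box and 4.18% the NF-kB consensus. None of the 13 member windows held the palindrome or the single site, which says only that these letters are not in these windows. Capitals mark the cAMP-response element 124 bases and the E-box 107 bases before the start of Dusp1 (chr10:17184603-17184902, plus strand). In Nfkbia (chr6:78597023-78597322, minus strand) they mark the NF-kB consensus 31 bases before the start. The Fkbp5 window lies at chr20:6543506-6543805 and that of Ddit4 at chr20:28436988-28437287, both on the minus strand.
Dusp1: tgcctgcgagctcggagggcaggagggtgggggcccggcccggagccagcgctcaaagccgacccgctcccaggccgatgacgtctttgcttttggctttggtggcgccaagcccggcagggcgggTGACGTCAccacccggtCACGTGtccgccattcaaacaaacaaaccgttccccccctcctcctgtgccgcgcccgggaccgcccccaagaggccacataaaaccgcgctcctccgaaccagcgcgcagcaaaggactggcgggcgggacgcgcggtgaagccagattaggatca
Nfkbia: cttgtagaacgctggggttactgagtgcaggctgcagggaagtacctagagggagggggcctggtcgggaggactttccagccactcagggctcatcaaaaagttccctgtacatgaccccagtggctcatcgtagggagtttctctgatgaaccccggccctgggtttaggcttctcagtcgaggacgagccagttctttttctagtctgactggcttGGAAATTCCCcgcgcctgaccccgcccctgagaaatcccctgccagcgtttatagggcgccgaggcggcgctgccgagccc
Fkbp5: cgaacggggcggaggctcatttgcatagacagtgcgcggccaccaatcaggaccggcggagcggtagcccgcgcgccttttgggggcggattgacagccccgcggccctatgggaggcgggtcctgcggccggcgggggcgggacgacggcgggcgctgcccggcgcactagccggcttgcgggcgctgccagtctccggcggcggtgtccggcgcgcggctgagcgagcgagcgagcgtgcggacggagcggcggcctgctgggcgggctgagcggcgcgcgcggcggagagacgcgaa
Ddit4: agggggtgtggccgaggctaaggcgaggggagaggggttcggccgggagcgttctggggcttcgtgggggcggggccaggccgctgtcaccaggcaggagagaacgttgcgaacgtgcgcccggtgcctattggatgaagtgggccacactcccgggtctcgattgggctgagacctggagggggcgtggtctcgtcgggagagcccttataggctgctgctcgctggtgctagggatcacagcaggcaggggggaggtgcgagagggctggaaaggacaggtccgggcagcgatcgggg

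Among the metabolic members, Ddit4 had the lowest ratio in microglia. It encodes REDD1, an inhibitor of the growth kinase complex mTORC1 that stress and hypoxia also induce. It stood at 10.1 CPM (8.94 to 11.3, 296 UMIs) in dexamethasone and 19.4 CPM (18.2 to 20.6, 997 UMIs) in control microglia, a log2 ratio of -0.95 (-1.14 to -0.76). The lower level appeared in axon-tract-like cells (9.48 against 23.6 CPM, -1.31) and in S phase cells (8.03 against 14.1 CPM, -0.82), but in G2/M cells the levels were 8.16 and 9.33 CPM with an interval of -0.72 to 0.31. Among microglia without early-gene UMIs after thinning the log2 ratio was -0.52, under 1.5-fold. In a list of ATF4 and hypoxia genes, all 13 measured were above 0 in microglia, with a median of 0.30. The intervals of Chac1, Asns, Psat1, Ankrd37 and Adm include 0, and Vegfa, on 4 against 15 UMIs, was not measured. The relation of Ddit4 to these genes was not tested. In that list 2 were higher past 1.5-fold, where 5.32% of all measured genes were. Atf4, the stress transcription factor that heads the list, stood at 133.6 CPM in dexamethasone and 108.9 CPM in control.

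Sgk1 encodes a serine/threonine kinase that regulates ion channels and transporters. It stood at 74.4 CPM (71.3 to 77.6, 2190 UMIs) in dexamethasone and 77.4 CPM (75.0 to 79.9, 3978 UMIs) in control microglia, a log2 ratio of -0.06 (-0.13 to 0.02). Its level followed microglial state closely and alike in both libraries. Chemokine-high cells had 164.0 and 168.3 CPM and axon-tract-like cells 155.6 and 164.8 CPM, and these neighbours were not set apart by their intervals. S phase cells followed at 80.8 and 84.0 CPM, homeostatic cells had 65.7 and 65.3 CPM, and G2/M cells 41.3 and 48.4 CPM. Border macrophages were lower still, at 26.1 and 20.4 CPM. Thinned to 3000 UMIs, 15.6% of dexamethasone and 16.6% of control microglia carried an Sgk1 UMI, against 35.3% and 34.5% without thinning. The shares in thinned erythroid cells were 1.10% and 0.870%, from 1 cell in each library, and globin lowers them.

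**Figure D4:**
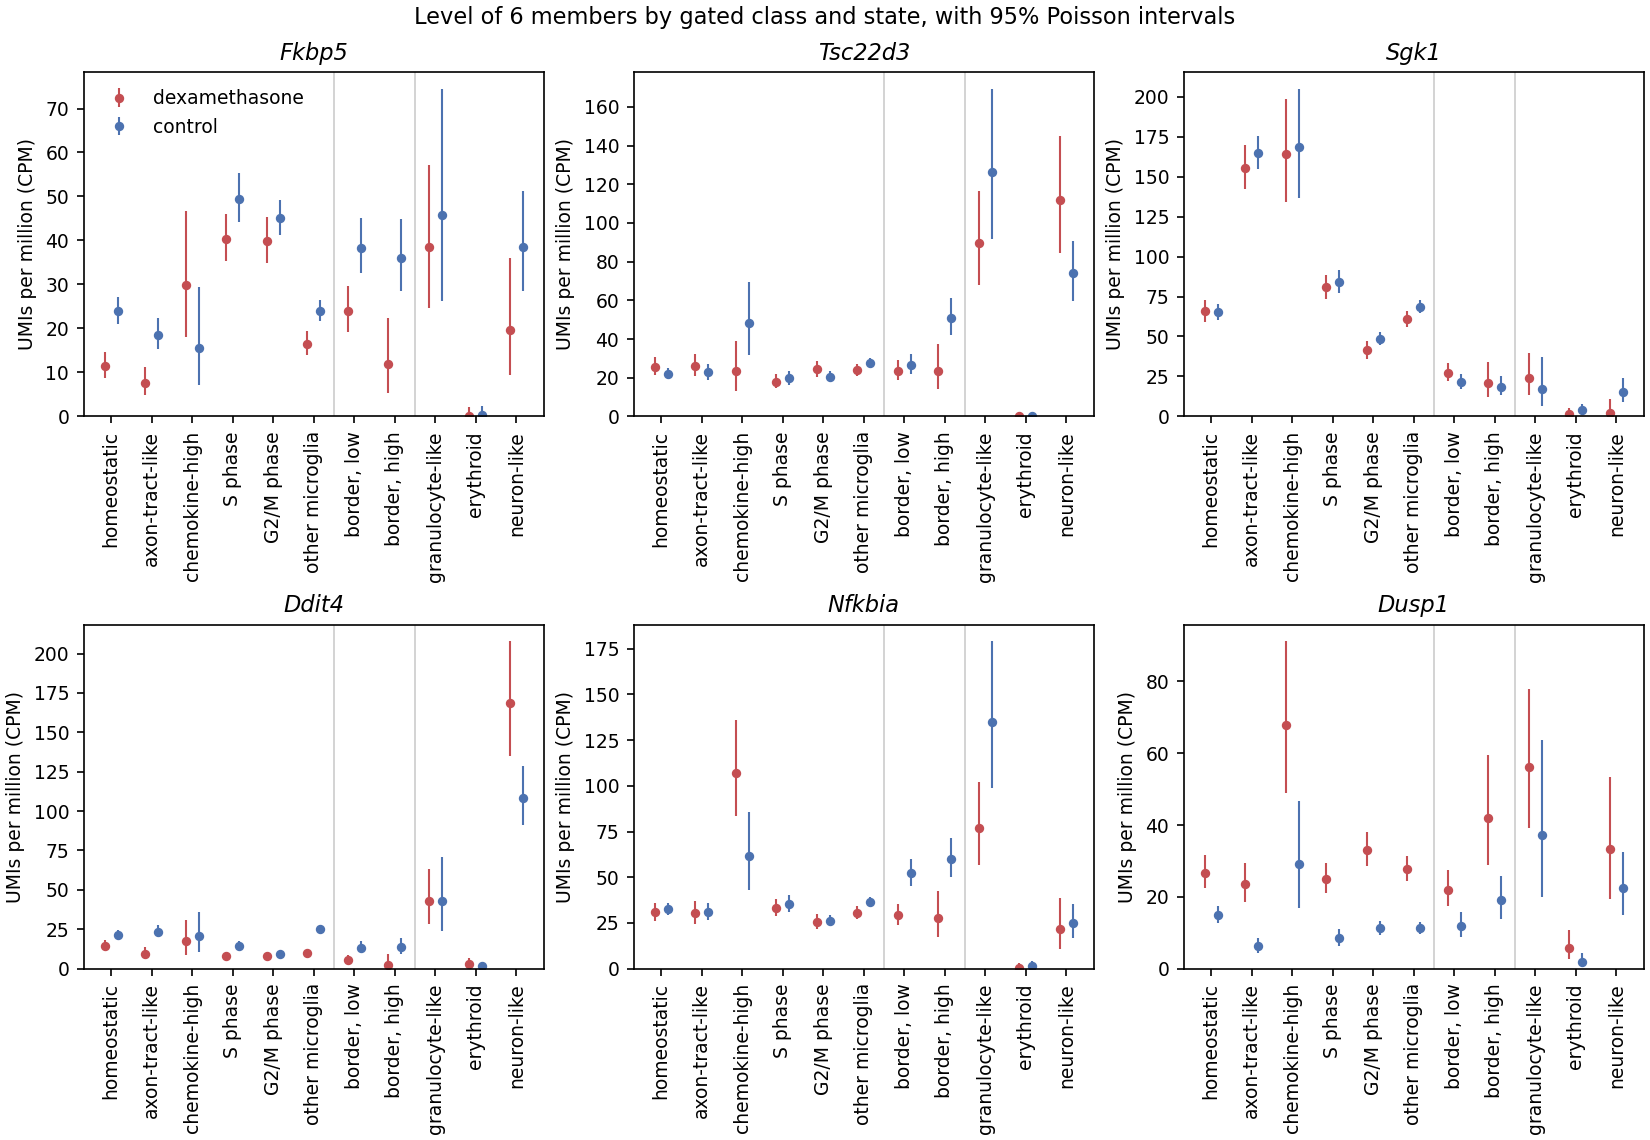
Level in CPM (vertical axes, each with its own scale) of 6 genes in the 6 microglial states, border macrophages with low or high counts of Cd163, Clec10a and Ccl24, granulocyte-like, erythroid and neuron-like cells, in the dexamethasone (left point) and control (right point) libraries, with 95% Poisson intervals. Dusp1 is higher in dexamethasone in all 6 microglial states, Sgk1 follows the state in both libraries, and all 6 genes are near 0 in erythroid cells.

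The members that regulate transcription were scarce. Per1, a repressor within the circadian clock, stood at 1.05 and 1.19 CPM in dexamethasone and control microglia, on 31 and 61 UMIs (log2 ratio -0.17, -0.85 to 0.47). Klf9, a zinc finger factor of the Krüppel-like family, stood at 1.73 and 1.93 CPM on 51 and 99 UMIs (-0.15, -0.67 to 0.35). Zbtb16 encodes the zinc finger repressor PLZF. It had 0 UMIs in dexamethasone and 2 in control microglia, 2 and 6 in border macrophages, and 0 and 6 in neuron-like cells. In dexamethasone microglia the Poisson interval of a count of 0 reaches 0.125 CPM. No library difference for these 3 genes in microglia was detectable at this depth. Among 13 measured genes of the clock list, 9 were above 0 and 4 below in microglia. There was 1 past 1.5-fold each way, where 5.32% of all measured genes were higher and 5.15% lower.

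In border macrophages most members were lower in the dexamethasone library. Of 8 measured, 2 were above 0 and 6 below, with a median log2 ratio of -0.69, where the median of all 10010 measured genes was -0.01. In all, 5 members were lower past 1.5-fold, where 6.84% of all measured genes were, and 1, Dusp1, was higher past it, where 5.43% were. Nfkbia stood at 28.9 CPM in dexamethasone and 55.1 CPM in control (-0.93, -1.24 to -0.63). Fkbp5 stood at 21.8 against 37.5 CPM (-0.78, -1.15 to -0.43), Ddit4 at 5.22 against 13.4 CPM (-1.36, -2.11 to -0.67), and Klf9 had 7 against 29 UMIs (-1.51, -2.95 to -0.29). Dusp1 stood at 25.6 against 14.5 CPM (0.82, 0.40 to 1.24). Sgk1, at 26.1 against 20.4 CPM, had an interval of -0.03 to 0.74.

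The makeup of the border macrophages differed too. Cells with high counts of Cd163, Clec10a and Ccl24, of which Cd163 is itself known to be induced by glucocorticoids in macrophages, were 67 of 360 in dexamethasone and 223 of 661 in control. The summed level of 8 border markers was 2932 CPM in dexamethasone and 4142 CPM in control. Tsc22d3, at 23.5 against 35.4 CPM over all border macrophages (-0.59, -0.95 to -0.24), had a log2 ratio of -0.19 (-0.62 to 0.24) in the low cells and -1.11 (-1.91 to -0.38) in the high cells. With halved marker minimums its ratio over all border macrophages was -0.45, under 1.5-fold. Fkbp5 (-0.68 and -1.60), Nfkbia (-0.84 and -1.12) and Ddit4 (-1.19 and -2.38) were lower past 1.5-fold in low and in high cells alike, where 6.69% and 14% of all measured genes were lower past it. With doubled marker minimums the Fkbp5 ratio in the low cells was -0.21, under 1.5-fold. Dusp1 was higher past it in both, where 6.13% and 9.07% were. With both kinds of cell weighted equally, the ratios were -1.05 for Fkbp5, -0.72 for Tsc22d3, -0.98 for Nfkbia and -1.68 for Ddit4.

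In neuron-like cells, which carried almost no receptor transcript (1 and 8 Nr3c1 UMIs), Ddit4 and Tsc22d3 were at their highest or near it. Ddit4 stood at 168.5 CPM (134.7 to 208.1) in dexamethasone and 108.6 CPM (91.1 to 128.6) in control, a log2 ratio of 0.63 (0.23 to 1.03), and in both libraries its interval lay above that of every other class. Tsc22d3 had a ratio of 0.59 (0.09 to 1.09). These 2 of 6 measured members were higher past 1.5-fold, where 10.8% of all measured genes were. With halved marker minimums both fell under it, at 0.51 for Ddit4 and 0.54 for Tsc22d3, and Tsc22d3 also did so under other alternatives, among them the stricter cell filter (0.58) and CPM without mitochondrial, ribosomal protein and globin genes (0.56). Fkbp5, at 19.6 against 38.6 CPM, and Sgk1, on 1 against 19 UMIs, were lower past it, where 11.7% were. The Fkbp5 ratio rested on 10 and 48 UMIs, with an interval of -2.13 to 0.02 that includes no difference. The cells differed in depth, with medians of 6285 and 3261 UMIs, and in the summed level of 3 oligodendrocyte-lineage markers, at 35.3 and 0.80 CPM, while 14 neuron markers summed to 16259 and 16354 CPM. The part of these differences in the ratios was not tested. Thinned, 34.7% of 49 dexamethasone and 28.7% of 136 control neuron-like cells carried a Ddit4 UMI (46.6% and 29.5% unthinned), with 24 and 128 shallower cells left out.

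In granulocyte-like cells, 6 members were measured, and Nfkbia was lower and Dusp1 higher past 1.5-fold, where 15.1% of all measured genes were lower and 11.5% higher. Dusp1 stood at 56.1 against 37.3 CPM on 35 and 13 UMIs, with an interval of -0.37 to 1.63. With doubled marker minimums both calls were lost, at -0.26 for Nfkbia and 0.47 for Dusp1, and Nfkbia was at -0.16 when cells were thinned before gating. Dusp1 was also just under 1.5-fold, at 0.58, with CPM that left out mitochondrial, ribosomal protein and globin genes. Their defining gene S100a9 stood at 57987 CPM in dexamethasone and 34976 CPM in control. No member reached 20 UMIs in erythroid cells. Fkbp5 had 0 and 1 UMIs there, Sgk1 3 and 10, and of the 10 Dusp1 UMIs in the dexamethasone library 9 came from 1 cell. Globin transcripts fill most of the UMIs of erythroid cells, which lowers the CPM of every other gene in them.

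Other genes reported to respond to the receptor were balanced in sign in microglia. Of 25 measured, 12 were above 0 and 13 below, with a median of -0.02. Among them 3 were higher and 1 lower past 1.5-fold, where 5.32% of all measured genes were higher and 5.15% lower. The higher ones were Hif3a (1.75, 1.04 to 2.49, on 50 and 26 UMIs), Cd163 (0.64, -0.20 to 1.47) and Mt2A (0.63, 0.40 to 0.86). Cdkn1c was the lower one (-0.85, -1.46 to -0.28). Txnip, an inhibitor of thioredoxin, stood at 486.3 CPM in dexamethasone and 519.7 CPM in control, and Glul, glutamine synthetase, at 383.6 and 451.6 CPM. Mt1, the metal-binding metallothionein 1, stood at 144.0 and 113.5 CPM, and Zfp36l2, which promotes decay of AU-rich mRNAs, at 378.1 and 299.7 CPM. In the list of receptor chaperones and cofactors, 9 of 12 measured genes were above 0 and 3 below, and none passed 1.5-fold. Hsp90ab1, which encodes a chaperone that holds the receptor, stood at 2579 against 3028 CPM. Ptges3, a cochaperone gene of the same list, was higher in dexamethasone, at 449.0 against 383.8 CPM.

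Across 22 points, 11 classes and states in each library, the genes whose log2(CPM + 1) followed a member most closely were picked from 6985 candidates, as a description of points that share libraries and depth. Among the points are erythroid cells, where Fkbp5 stood at 0 and 0.43 and Nfkbia at 0.59 and 1.73 CPM in dexamethasone and control. Genes also low there gain in r from these points, and r without them was not computed. Fkbp5 was followed most closely by Smchd1 (r = 0.95), Usp1 and Anp32b (both 0.94). Tsc22d3 was followed by Mpc2 and Btg1 (both 0.97) and Usp3 (0.96), Nfkbia by Slc35c1, Psme4 (both 0.96) and Atp11b (0.95), and Sgk1 by Alpk3, Furin (both 0.94) and Sgms1 (0.93). Ddit4 was followed by Septin5 (0.94), Palm and Zfand5 (both 0.90). For Dusp1 the closest were Rpl37 (0.84), Ier2 (0.83) and Rab28 (0.82), and the values were lower than for the other 5. Per1, Klf9, Zbtb16 and Errfi1 did not reach 20 CPM in a class of both libraries and were not compared.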

How the data were processed

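Droplet libraries of sorted hippocampal cells had been made from 2 pools of 7 male rat embryos. Per the submitters' processing notes, reads were processed with Cell Ranger 7.0.0 against Rnor_6.0. The annotation release and the treatment of intronic reads are not given in the sources used here. The deposited values are raw counts of UMIs per gene and barcode. The 10 genes and all gene lists were chosen with earlier results of these data known.

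Barcodes with fewer than 200 genes or over 20% mitochondrial UMIs were dropped, which left 4199 dexamethasone and 8044 control cells. Erythroid, granulocyte-like, neuron-like and macrophage cells needed at least 100, 10, 10 and 20 UMIs of their markers. Macrophages with at least 3 UMIs of 6 microglia markers, and no more border markers than these, were microglia. Those with at least 12 UMIs of 6 border markers, and more border than microglia markers, were border macrophages. Minimums were set from marker counts alone. Macrophages that met neither (582 and 736), cells meeting no gate (179 and 601) and cells meeting 2 or more class gates (29 and 68) were set apart. No doublet caller was run, and doublets within a class remain.

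Counts were summed per class and library and scaled to CPM. Poisson, Clopper-Pearson and conditional binomial intervals were exact. Ratios needed 20 UMIs, and a count of 0 was given a floor of 3 counts per library. Of the companion genes named, 2 per list had the highest mean CPM and 2 the largest ratio among those with 20 CPM, of which a selection is printed. Fos, Ier2, Atf3, Nfkbib, Nfkbie, Tnfaip3, Nfkbid and Nfkbiz fall outside this rule and were chosen after their values were seen. The same holds for Bcl3, Relb, Nfkb2, Chac1, Asns, Psat1, Ankrd37, Adm, Vegfa, Hif3a, Mt2A, Cd163 and Cdkn1c. Likewise 3 genes most like each member were named. Shares of cells were taken after thinning to 3000 UMIs. The ratio procedure was tested on simulated data. Python 3.11.15, numpy 2.4.6, scipy 1.17.1, pandas 2.3.3 and matplotlib 3.10.9 were used.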

Additional observations from a re-analysis of the deposited data

Results flagged for a closer look

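Opposite directions between cell classes drew attention to 2 genes. The log2 ratio of Ddit4 was 0.63 in neuron-like cells but -0.95 in microglia and -1.36 in border macrophages. The log2 ratio of Tsc22d3 was 0.59 in neuron-like cells and -0.59 in border macrophages. With 1 library per group, neither difference between classes was tested.

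Dusp1 was also higher in the dexamethasone library among some of the cells outside the classes compared, and not among those that met no gate, where it stood at 15.7 against 16.3 CPM (log2 ratio -0.06, with an interval that includes 0). Its log2 ratio was 0.90 in macrophages that met neither the microglia nor the border minimum (22.5 against 12.1 CPM) and 1.58 in cells that met several class gates (34.5 against 11.5 CPM on 20 and 14 UMIs).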

How the results depend on the processing

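No paired analysis was possible because each group is 1 library, and no replicate could be left out. Of 765 alternative values of 90 member ratios, 39 moved past the counting interval. Of the 90 ratios, 59 kept one sign and 31 changed sign under some alternative. The Fkbp5 ratio in homeostatic microglia (-1.07) reversed to 0.56 with doubled marker minimums. The cause was not tested. The 2 members lower past 1.5-fold in microglia became 1 when states were weighted equally (Ddit4 was left). They became 1 among microglia without early-gene UMIs after thinning (Errfi1 was left). Both alternatives were chosen after the data were seen. The Nfkbia ratio in border macrophages was -3.67 when cells were thinned before gating, which left 49 and 219 cells with 1 and 57 Nfkbia UMIs, and that of Tsc22d3 was -1.50. The Nfkbia ratio in microglia was 0.21 with states weighted equally. The Dusp1 ratio in microglia lay between 1.16 and 1.38 in 11 alternatives. Depth limits Per1, Klf9, Zbtb16 and every member in erythroid cells.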
